A study of Drosophila melanogaster with 3 samples.

Results

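Single-gene promoter summits are the highest points of Pdp1-eGFP peaks that lay within 500 bp of an annotated transcription start site (TSS) of exactly 1 protein-coding gene. Of the 4622 peaks that passed the authors' threshold for reproducibility between replicates, 1339 (29.0%) had such a summit. The choice used position and gene models, and no property of the signal beyond that threshold. A further 918 summits lay within 500 bp of start sites of more than 1 gene and are called shared promoter summits, and 2365 lay farther from every start site and are called non-promoter summits. The samples were whole Drosophila melanogaster embryos of 0 to 24 h and of both sexes, in 3 biological replicates of 1 group, with no group to compare them with. Their strain, Pdp1-MiMIC-GFP, carries an eGFP exon in an intron of the endogenous Pdp1 gene, so the fusion protein is made from the gene's own control sequences. Isoforms whose transcripts do not include that exon would lack the tag. Chromatin was sonicated to 200 to 800 bp and precipitated with an anti-GFP antibody. In whole embryos the cells in which a promoter was bound cannot be told apart, and lists from untagged embryos were not analysed here.

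Pdp1 is a transcription factor of the PAR family of basic leucine zipper (bZIP) proteins, which dimerise and bind palindromic sites. Of the words searched here as the PAR site, TTACGTAA is a palindrome and TTATGTAA is not an exact one. In adult flies Pdp1 is known as an activator of the clock gene Clk, and in embryos and larvae as a regulator of muscle genes and of growth. Fly promoters are known in broad classes. Housekeeping promoters often carry the DRE, the DNA element that DREF binds, and regulated promoters often carry sites of GAGA factor, the product of Trl, or a TATA box.

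The sequences in this paragraph show the words on which the results turn, each 5′ to 3′ on the strand of its gene, from the Release 6 (dm6) genome of RefSeq, in lower case with the word in capitals. Ugalt, at chrX:2703853-2703953 (minus strand), encodes a UDP-galactose transporter and had the strongest member summit, and its stretch has no PAR, DRE or GAGA word. The stretches of org-1, at chrX:8455345-8455465 (minus strand), and of spri, at chrX:10547138-10547258 (minus strand), are the strongest members with a PAR site, in capitals as TTACATAA or TTATGTAA. The gene org-1 encodes a T-box factor of muscle precursors, and spri a protein of the RIN family that binds Ras. For eEF1gamma, at chr3R:29220076-29220171 (plus strand), a subunit of translation elongation factor 1, and RpS12, at chr3L:13023250-13023351 (plus strand), a protein of the small ribosomal subunit, the capitals mark the DRE word TATCGATA. For the cGMP-dependent kinase gene for, at chr2L:3632155-3632304 (minus strand), and for CG31612, at chr2L:21795448-21795597 (minus strand), the 150 bases before the start site are given, with the word GAGAGAG or its complement CTCTCTC in capitals. The last 3 were chosen after their values were seen.
Ugalt: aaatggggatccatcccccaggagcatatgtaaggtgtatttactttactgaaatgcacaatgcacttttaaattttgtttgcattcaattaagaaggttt
org-1: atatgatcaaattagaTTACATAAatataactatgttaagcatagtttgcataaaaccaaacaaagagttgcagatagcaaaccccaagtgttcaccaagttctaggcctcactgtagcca
spri: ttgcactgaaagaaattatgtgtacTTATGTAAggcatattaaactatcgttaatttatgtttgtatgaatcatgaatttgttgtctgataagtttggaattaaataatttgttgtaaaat
eEF1gamma: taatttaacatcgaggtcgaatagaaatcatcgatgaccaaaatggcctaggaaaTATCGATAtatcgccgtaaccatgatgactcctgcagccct
RpS12: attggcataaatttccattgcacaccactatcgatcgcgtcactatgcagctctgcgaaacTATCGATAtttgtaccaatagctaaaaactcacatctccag
for: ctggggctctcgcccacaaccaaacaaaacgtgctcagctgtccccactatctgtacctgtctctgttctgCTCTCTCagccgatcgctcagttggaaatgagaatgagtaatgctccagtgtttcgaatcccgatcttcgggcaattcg
CG31612: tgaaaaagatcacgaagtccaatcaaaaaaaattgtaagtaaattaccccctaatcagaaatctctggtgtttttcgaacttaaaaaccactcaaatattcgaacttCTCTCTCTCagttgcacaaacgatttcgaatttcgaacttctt
The summit of for lay 379 bp upstream of the start site and that of CG31612 lay 450 bp downstream, so in both genes the capitals stand near the start site and away from the summit.

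The signal of a peak is the value the authors' peak caller gave it, and it is not scaled between lists, so it ranks peaks within a list only. Read numbers are unknown. Values written as mean ± SD are over the 4622 strongest peaks of each of the 3 replicate lists, classified in the same way. These lists held 1458, 1201 and 1447 single-gene promoter summits in replicates 1, 2 and 3. Comparisons given with a p were tested over the 3 replicate values with an exact two-sided sign-flip permutation test, whose smallest possible p is 0.25, so no comparison could pass 0.05. The labels call the replicates biological, and beyond that the p-values measure only the spread between these samples.

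Single-gene summits lay mainly upstream of the start site. Of the 1339 members, 1123 (83.9%) were upstream, 214 downstream and 2 exactly at the start, with a median position of -132 bp (quartiles -248 and -41.5 bp). In replicates 1, 2 and 3 the upstream share was 76.5%, 87.3% and 77.7%, a mean of 80.5% ± 5.89 (SD, n = 3). The fullest 50 bp bin, from -150 to -100 bp, held 195 summits (14.6%), and 442 members (33.0%) lay within 100 bp of the start. In 886 members the deposited summit was the exact middle of the peak, so positions are only as fine as the peak call. Shared promoter summits sat closer, at a median of -75 bp from the nearest of their start sites, with 84.6% upstream. A summit between several starts has a shorter way to the nearest one, so these distances are not like for like. Among the members themselves, the strongest of 4 equal parts by signal had its median at -177 bp and the weakest at -98 bp.

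**Figure D1:**
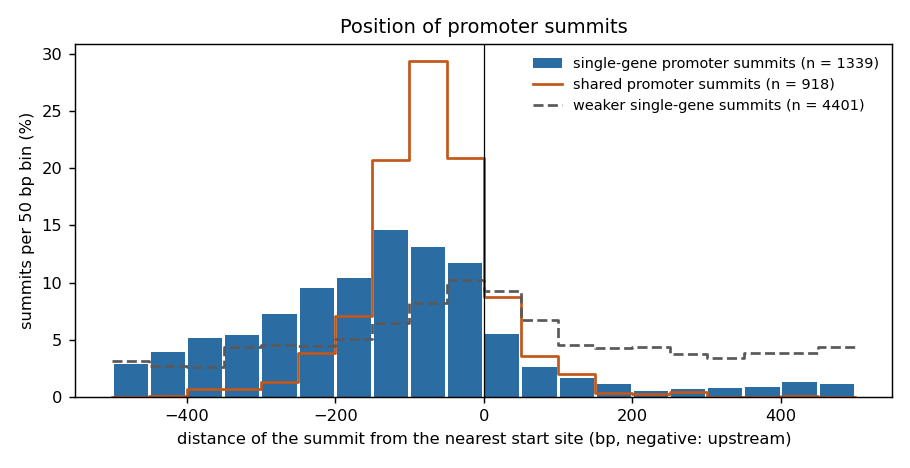
Share of summits in 50 bp bins (vertical axis, percent) by distance from the nearest start site (horizontal axis, bp, negative upstream). Bars are the 1339 single-gene promoter summits and the solid line the 918 shared promoter summits. The dashed line is 4401 single-gene promoter summits of weaker peaks, which may include background calls. The bars lie mostly left of 0, and the dashed line runs on right of it.

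The upstream placement differed between stronger and weaker peaks. In the relaxed list called on the pooled replicates, 4401 further summits met the same positional rule with a signal below the threshold. Of these, 51.7% lay upstream, with a median of -9 bp. The authors named that list peaks and background, so background calls may be among these weaker summits. Their share is unknown, and their part in the difference was not tested. The same split was made within each replicate, between the 4622 strongest peaks and the rest. In replicate 1, 76.5% of the single-gene summits of the strongest peaks and 45.9% of the others were upstream. The shares were 87.3% and 51.1% in replicate 2, and 77.7% and 48.9% in replicate 3. The difference was 31.9 ± 3.87 percentage points (SD, n = 3), larger than the spread between replicates and of 1 sign in 3 of 3 (exact permutation p = 0.25). This comparison was chosen after seeing the data.

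Members within 50 bp of the start were the weakest by signal. Their median was 142 over 231 summits, against 196 over the 329 members from -500 to -250 bp, 197 over the 267 from -250 to -150 bp and 182 over the 370 from -150 to -50 bp. Farther downstream, from 50 to 500 bp, 142 members had a median of 177. Near the edge of the rule, the farthest members were at -499 bp for peb (signal 259.6) and -497 bp for CG42331 (161.6), and just outside lay summits at -501 bp for CG9981 (244.8) and -502 bp for CG43736 (564.0). The window therefore cuts through a continuous spread of positions.

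Over all members the signal had a median of 179, with quartiles of 130 and 294 and a range from 102 to 3424. Shared promoter summits had a median of 196 and non-promoter summits one of 162. On the log2 scale the ratio of medians, members over shared, was -0.16, -0.27 and -0.11 in replicates 1, 2 and 3, and -0.18 ± 0.08 on average (SD, n = 3; exact permutation p = 0.25, adjusted over 6 tests 0.3). Members over non-promoter summits gave 0.04, 0.35 and 0.04, and 0.14 ± 0.18 on average (n = 3; exact permutation p = 0.25, adjusted 0.3), which is within its spread. In the thresholded list this value was 0.147, and with a start site window of 200 bp 0.077. With replicate 1, 2 or 3 left out, which kept only the pooled peaks supported in both others, it was 0.276, 0.186 and 0.256. The first difference was -0.13 in the thresholded list, -0.33 with a start site window of 200 bp, and of the other sign in the stronger 2311 peaks, at 0.067.

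The strongest members belonged to genes of varied function. The highest was the summit 41 bp upstream of Ugalt, at chrX:2703678-2704107 (dm6), with a signal of 1187, 1333 and 929 in replicates 1, 2 and 3. The second, 98 bp upstream of CG14100 at chr3L:19590404-19590832, had 1276, 1328 and 824. The third, 478 bp upstream of a start of the Polycomb group gene ph-p, at chrX:2137133-2137584, had 871, 992 and 725. Next came PNPase, the mitochondrial polynucleotide phosphorylase, with 825, 705 and 602, then CG1888 with 898.5, 614 and 607, and then mRpL41, a mitochondrial ribosomal protein, with 746, 590 and 489.

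The other 14 of the 20 strongest members that had a summit within 100 bp in every replicate list ran from px, with 752, 512 and 544, down to brwl, with 404, 306 and 341. Among them were larp, an RNA-binding protein of the La family, Sox14, a transcription factor of metamorphosis, Atf3, a bZIP factor, Rtnl1, a reticulon of the endoplasmic reticulum, amon, a prohormone convertase, and Fhos, a formin of the actin cytoskeleton. Of the 20, 19 were upstream of their start site, and the exception was GstE13, a glutathione S-transferase gene, at 51 bp downstream. The member of rank 16, at gish, was passed over because replicate 2 had no summit within 100 bp of it.

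**Figure D2:**
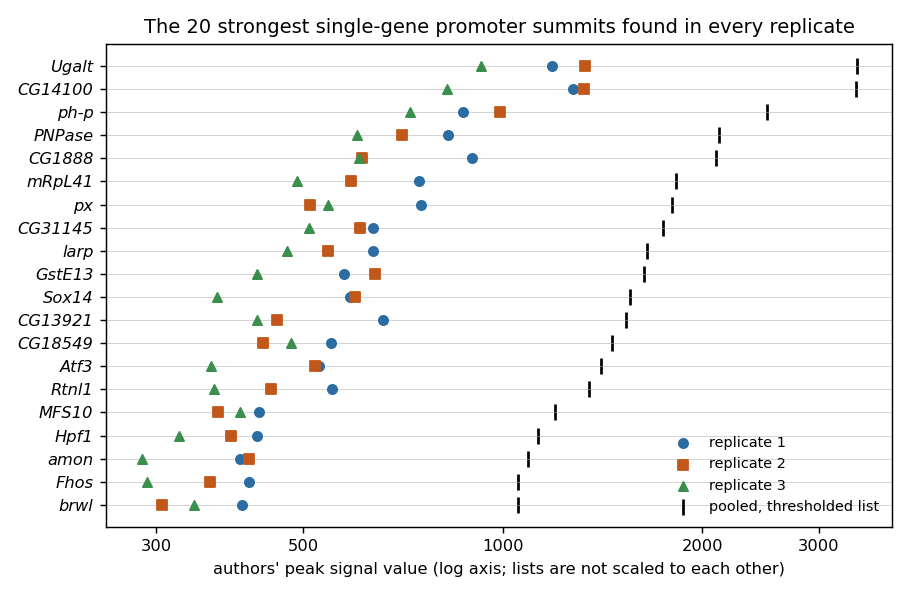
Signal (horizontal log axis, authors' units) of the 20 strongest single-gene promoter summits found in every replicate list, with 1 row per gene. Circles, squares and triangles are replicates 1, 2 and 3, and the tick is the pooled, thresholded list. The rows run from Ugalt, between 929 and 1333 in the replicates, to brwl, between 306 and 404, and the pooled tick lies right of the replicate marks in every row, on a scale of its own.

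GAGA words stood near the start sites of members and beside their summits more often than under them. The word GAGAGAG, searched on both strands, was in the 100 bases before the nearest start site at 111 of 1339 members (8.29%) and at 6 of 918 shared promoter summits (0.654%). In the replicates the members had 8.03%, 7.16% and 8.78%, a mean of 7.99% ± 0.809 (SD, n = 3). Weaker single-gene summits, which may include background calls, had it in 5.79%. Of all protein-coding genes with 1 canonical start each, 2.91% had it in the same stretch. The difference from shared promoters was 6.63, 6.54 and 7.58 percentage points in the replicates (6.92 ± 0.578, SD, n = 3; exact permutation p = 0.25), larger than their spread. In the thresholded list it was 7.64, and 4.11 with a start site window of 200 bp. From -500 to -100 bp the word was in 14.7% of members, 3.38% of shared promoters and 5.99% of all promoters. A shared promoter summit has a start of another gene within 500 bp, so the bases before its nearest start can belong to that gene. Word shares of members and of shared promoters, here and below, are therefore not like for like. These comparisons were chosen after seeing the data.

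The members' start sites were also set against other start sites that have no neighbour. Among start sites with no start of another gene within 500 bp, the word preceded 100 of 1264 (7.91%) that had a member and 478 of 13189 (3.62%) that had none. The order was the same for genes with 1 start site (5.71% with a member and 2.18% without), with 2 (7.94% and 4.01%), with 3 or 4 (10.6% and 5.95%) and with 5 or more (11.3% and 7.35%). It held in 3 of 3 replicates in each of these classes, with a difference over all of 4.09 ± 0.724 percentage points (SD, n = 3).

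Measured from the summit, the same word was more frequent 100 to 300 bp away than under it. It was in 27 of the 1339 windows of 101 bp centred on a member summit (2.02%), in 4.82% of windows centred 100 bp to either side, in 5.15% at 200 bp and in 3.996% at 300 bp, and in 2.58% at 500 bp. The replicates gave 2.05% ± 0.690 at the summit and 4.99% ± 0.461 at 200 bp (SD, n = 3), so this difference was larger than the spread. Shared promoter summits had 0.327% at the summit and 1.20% at 200 bp. In all promoters the word was in 3.08% of windows at the members' median position. Of the 27 members with the word at the summit, 27 were upstream of the start, at a median of -115 bp. The strongest was at CG9743, at -450 bp, with a signal of 358, 280 and 249.

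**Figure D3:**
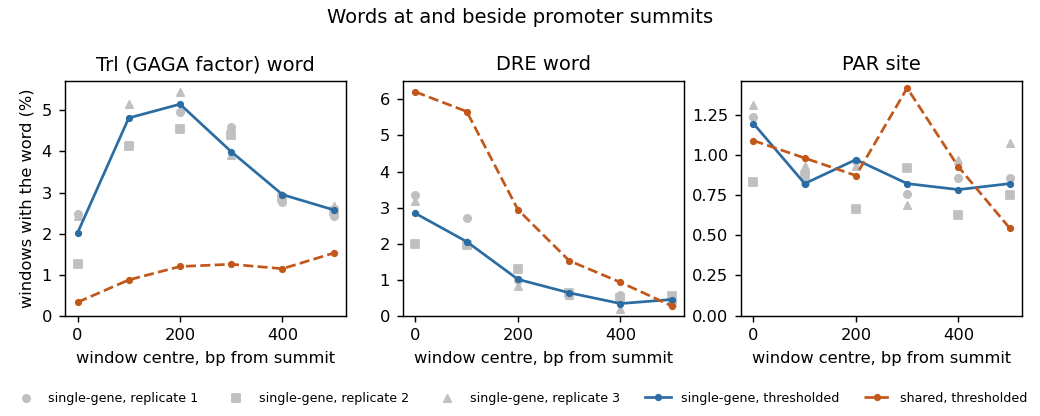
Share of 101 bp windows that hold a word (vertical axis, percent) by the distance of the window's centre from the summit (horizontal axis, bp, both sides pooled), for the GAGA factor word, the DRE word and the PAR site. The solid line is the single-gene promoter summits, grey marks are the same in the 3 replicates, and the dashed line is the shared promoter summits. The GAGA line peaks at 200 bp with 5.15%, the DRE lines fall from the summit outwards, and the PAR site line moves between 0.784% and 1.20%.

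The DRE was more frequent at shared promoter summits than at members. The word TATCGATA, which contains the BEAF-32 core CGATA, was within 50 bp of 38 member summits (2.84%), against 57 shared promoter summits (6.21%), 0.338% of non-promoter summits and 1.20% of all promoters at the members' median position. In replicates 1, 2 and 3 the members had 3.36%, 2.00% and 3.18% (2.85% ± 0.740, SD, n = 3), and the shared promoters had 5.18% ± 1.32 (n = 3). The difference was -3.10, -1.83 and -2.07 percentage points, with a mean of -2.33 ± 0.674 (n = 3; exact permutation p = 0.25, adjusted 0.3). In the thresholded list it was -3.37, and with a start site window of 200 bp -0.417. Counted from the start site, the 100 bases before it held the word at 5.30% of members, 11.4% of shared promoter summits, 5.73% of weaker single-gene summits and 5.95% of all promoters, and from -500 to -100 bp at 3.96% of members and 4.55% of all promoters. In these stretches the members were not above all promoters, which include the shared ones. Promoters with no neighbour had 4.25% and 2.51%, below the members. At the summit, all promoters were read at a fixed position while member summits were spread, so that comparison is not like for like. Among neighbourless start sites the word preceded 69 of 1264 with a member (5.46%) and 443 of 13189 without (3.36%). Over the replicates this difference was 2.53 ± 1.61 percentage points (SD, n = 3). It was positive in 3 of 3 replicates for genes with 1 or with 2 start sites. For genes with 3 or 4 it was positive in 2 of 3, and with 5 or more in 1 of 3. Members with the DRE lay close to the start, at a median of -40.5 bp, and 16 of the 38 were in the weakest of 4 equal parts by signal. The strongest was at Alg3, a mannosyltransferase gene of N-glycan synthesis, with 244, 120 and 193. Second came CG1827, with 183, 121 and 133, and after it eEF1gamma, whose stretch is printed above, with 207 and 132 in replicates 1 and 3 and no summit within 100 bp in replicate 2. The BEAF-32 core alone was at 21.5% of members, 28.2% of shared and 15.3% of all promoters.

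The PAR site, TTACGTAA or TTATGTAA on either strand, was rare. It was within 50 bp of 16 member summits (1.19%), in 0.822% of windows 500 bp to either side, at 1.09% of shared promoter summits and in 0.983% of all promoters. In the replicates the members had 1.24%, 0.833% and 1.31%, and their flanks 0.857%, 0.749% and 1.07%. The difference was 0.234 ± 0.147 percentage points (SD, n = 3; exact permutation p = 0.25, adjusted 0.3), positive in 3 of 3. In the thresholded list it was 0.373, in its stronger 2311 peaks 1.15 and with a 200 bp start site window 0.123. With replicate 1, 2 or 3 left out, which kept only the pooled peaks supported in both others, it lay between 0.659 and 0.875. In 4 equal parts by signal, strongest first, the site was at 6, 5, 4 and 1 members. Both words of the site are rich in A and T. G and C made up 37.6% of the member windows and 43.1% of their flanks. In the 4 parts, strongest first, they made up 34.2%, 37.2%, 38.6% and 40.3%. The part of base composition in the flank difference and in the order of the 4 parts was not tested. The strongest of the 16 was org-1, at -336 bp, with 162, 206 and 144, followed by spri, at -444 bp, with 179, 118.5 and 79.5.

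Other bZIP words were also rare, and near or below their share in all promoters at the members' median position. The AP-1 word TGAGTCA was at 13 members (0.971%, against 0.839% of all promoters). The C/EBP-like words TTGCGCAA or TTGCGTAA were at 4 (0.299% against 0.387%). The CRE TGACGTCA was at 1, the summit of Unr (0.0747% against 0.151%). The core of Motif 1, GGTCACAC, was at 19 members (1.42%), against 2.18% of shared and 0.767% of all promoters at the members' median position. In the 100 bases before the start site the values were 2.91% of members and 2.92% of all promoters. From -500 to -100 bp they were 2.54% and 3.46%. Members were thus not above all promoters, which include the shared ones, in either stretch. They were above promoters with no neighbour, which had 1.84% and 1.36% in these stretches. The 2 strongest with it were eEF1alpha1 and RpL30, of elongation factor 1 and the large ribosomal subunit. The TATA word TATAAA was less frequent in the 100 bases before member starts. It was in the last 100 bases before 135 of the 1264 neighbourless start sites with a member (10.7%) and before 2555 of the 13189 without (19.4%), a difference of -9.57 ± 0.448 percentage points over the replicates (SD, n = 3), negative in 3 of 3. This too was chosen after seeing the data. From -500 to -100 bp the order was the other one, with the word at 57.4% of members, 54.0% of shared promoter summits and 51.4% of all promoters. At the summit it was in 15.7% of member windows, against 19.3% at shared promoter summits and 11.7% in the members' flanks. In all promoters at the members' median position it was in 19.8%. In the 101 bp at the summit, G and C made up 37.6% of member sequence. The share was 35.3% at shared promoter summits, 34.2% at non-promoter summits and 43.1% in the members' flanks. All promoters at the members' median position had 36.5%, close to the members. The difference between members and shared promoters was 2.67, 1.91 and 3.10 points in the replicates (2.56 ± 0.600, SD, n = 3; exact permutation p = 0.25, adjusted 0.3). In the thresholded list it was 2.30, and it was 4.76 with a start site window of 200 bp and 0.766 with 1000 bp.

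The 1339 members fell on 1200 genes, 8.61% of the 13945 protein-coding genes, and a further 1683 genes (12.1%) had shared promoter summits only. In the replicates the share with a single-gene summit was 8.70% ± 0.905 (SD, n = 3). Of the 1200 genes, 1080 had 1 member, 108 had 2 and 12 had 3 or more. Members of 1 gene are not independent of each other: 118 members had a peak that overlapped another member's peak, 12 of them with identical peak ends and separate summits. Pdp1 itself had no member.

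Genes with several start sites more often had a member. A member was present at 5.18% of genes with 1 start site, 12.9% with 2, 27.3% with 3 or 4 and 43.2% with 5 or more. A gene with more start sites has more windows in which a summit counts, so this share rises with their number by construction. Counted per start site with no neighbour, and each summit for its nearest start only, the shares were 7.15% of 7346 starts, 9.49% of 3583, 11.4% of 2484 and 11.1% of 1040 in the same classes. In the replicates they were 7.17% ± 0.726, 9.78% ± 1.17, 11.6% ± 1.10 and 11.7% ± 1.40 (SD, n = 3), a count added after seeing the data. Where the starts of a gene span over 1000 bp, which was so for 1752 genes, later clusters of start sites had a member in 316 of 2890 cases (10.9%) and the most upstream cluster in 186 of 1752 (10.6%). Member genes were also long, with a median of 5184 bp, against 2466 bp for genes with shared summits only and 2166 bp for all genes.

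The 4 genes with the most members were Ptpmeg2, Rtnl1, Moe and RapGAP1. Ptpmeg2, a protein tyrosine phosphatase gene with 6 start sites over 20.1 kb, had 5 members at 5 of its starts. The strongest of them, 191 bp upstream of the fourth start, had 289, 231 and 213 in replicates 1, 2 and 3. Rtnl1, with 7 start sites over 14.2 kb, also had 5 members, and the strongest, 259 bp upstream of its sixth start, had 553, 447 and 366. The first, second and last starts of Rtnl1 had none. Moe, which links actin to the membrane, had 4 members over 8 starts and 22.3 kb, with its strongest 6 bp upstream of the first start (104, 82.8 and 45.7). RapGAP1, a GTPase-activating protein for Rap1, had 4 members over 5 starts and 48.4 kb, with its strongest 108 bp upstream of the last start (109, 143 and 115). In these 4 genes the strongest member was at the first start only in Moe.

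**Figure D4:**
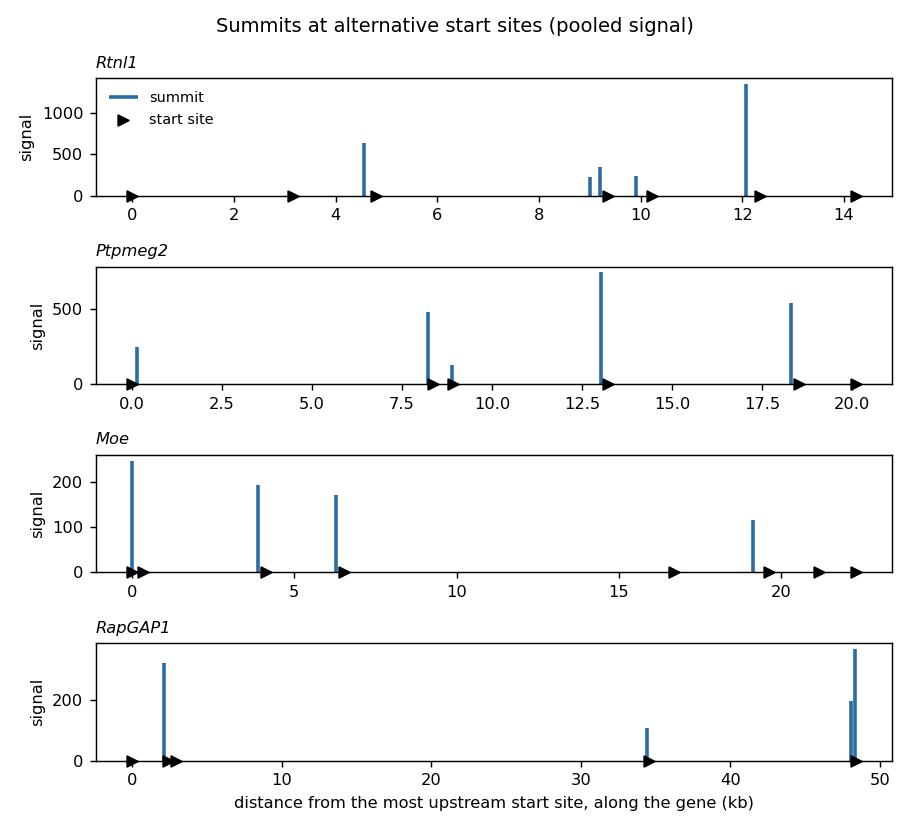
Pooled signal (vertical axis, authors' units) of the single-gene promoter summits of Rtnl1, Ptpmeg2, Moe and RapGAP1, drawn as vertical lines by distance from the most upstream start site along the gene (horizontal axis, kb). Arrowheads are the annotated start sites. The tallest line stands at a later start in Rtnl1 (1352), Ptpmeg2 (748) and RapGAP1 (365), and at the first start in Moe (246).

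Member summits were found both inside and outside gene bodies. In 528 cases the summit lay inside the body of its own gene only, in 82 inside another protein-coding gene only, in 48 inside both and in 681 inside none. The nearest start site of another gene was at a median of 2696 bp. Beyond the promoter, 272 of the 1200 member genes (22.7%) also had a non-promoter summit in the gene body, against 6.89% of genes with shared summits only and 7.03% of all genes. Length moved with this share. Among genes of 5 to 20 kb it was 29.9% for member genes, 18.9% for genes with shared summits only and 14.2% for genes with neither, and among longer genes 64.9%, 67.2% and 36.7%.

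By chromosome, the X had the highest share of genes with a member, 230 of 2196 (10.5%), and 10.7% ± 0.500 in the replicates (SD, n = 3). The other large arms lay between 7.75% on 2L and 8.98% on 3L, with replicate means from 7.80% ± 0.904 to 9.04% ± 1.04 (SD, n = 3). In replicates 1, 2 and 3 the X had 11.3%, 10.4% and 10.4%, in each case above every other arm. Chromosome 4 had 6 of 80 genes.

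Genes of metabolism and translation showed unlike patterns, read against the 8.61% of all genes. Of 13 glycolysis genes, 7 had a member (53.8%; 7, 7 and 8 in replicates 1, 2 and 3), and 2 had shared summits only. They were led by Gapdh2, at -165 bp with 298, 179 and 271, Eno, at -279 bp with 155, 157 and 155, Hex-A, at -136 bp with 211, 105 and 141, and Pgk, with 2 members. These encode glyceraldehyde-3-phosphate dehydrogenase, enolase, hexokinase and phosphoglycerate kinase, and Tpi, PyK and Ldh, of the same pathway or its lactate branch, completed the list.

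Of 91 cytosolic ribosomal protein genes, 31 had a member (34.1%) and 30 had shared summits only. In replicates 1, 2 and 3 the count with a member was 31, 20 and 32. The strongest were at RpL23A, with 220.5, 120 and 158, and at RpL26, with 144, 139 and 60.5, followed by RpS29 and RpL24. Replicate 2 had the fewest genes of the list. Of 75 mitochondrial ribosomal protein genes, 2 had a member (2.67%), mRpL41 and mRpL4, and 28 had shared summits only. A start site with no neighbour within 500 bp was present at 57 of the cytosolic and 20 of the mitochondrial genes, and among these 31 of 57 (54.4%) and 2 of 20 (10%) had a member. Over all protein-coding genes with such a start site the share was 11.4% (1191 of 10426). With 2 of 20 genes, the share of the mitochondrial list cannot be called low or not low here. The part of close neighbours was not tested. The other lists of basic cell machinery had more genes with shared summits only than with a member, as all protein-coding genes did (12.1% and 8.61%): aminoacyl-tRNA synthetases 1 with a member and 10 shared only of 33, proteasome subunits 3 and 12 of 48, Mediator subunits 3 and 8 of 29, respiratory chain and ATP synthase 6 and 15 of 82, splicing factors 5 and 9 of 28, and DNA replication 1 and 6 of 26.

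The lists of bZIP factors and of most signalling pathways had more genes with a member than genes with shared summits only. The share of genes with a neighbourless start differed too. It was 90.5% for bZIP, 90% for Ras and receptor tyrosine kinase and 66.7% for Hippo genes, against 74.8% of all genes. For splicing factor, Mediator and aminoacyl-tRNA synthetase genes it was 53.6%, 41.4% and 39.4%. Among genes with such a start, a member was present at 42.1% of bZIP, 33.3% of splicing factor, 25% of Mediator and 7.69% of synthetase genes. Among bZIP transcription factor genes 8 of 21 had a member (38.1%) and 1 had shared summits only, with 10, 10 and 8 genes in the replicates. Atf3 led them, at -230 bp with 529, 521 and 362, followed by REPTOR, a factor of the response to low TOR activity, at -166 bp with 301, 144 and 261. Next were Xbp1, of the unfolded protein response, and CrebA, of the secretory pathway, with 2 members each. Among insulator and promoter architecture genes 7 of 19 had a member and 6 shared summits only, among them Trl itself, at 124 bp downstream of a start with 166, 142 and 104, and BEAF-32.

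Of the signalling lists, Notch had 6 genes of 18, led by gro, a corepressor, at 275, 245 and 204.5, and by numb, an inhibitor of the receptor. Entries with no match by symbol are not counted: Dl and Nrarp of Notch, d of Hippo, and Tor of insulin and TOR signalling. Hippo had 5 of 15, among them hpo, its kinase, and Mer. Ras and receptor tyrosine kinase signalling had 9 of 30, led by the EGF receptor ligand gene spi, at 303, 326 and 212. Insulin and TOR signalling had 6 of 20, including the receptor gene InR, and Wnt 4 of 18, led by the kinase gene sgg. Dpp signalling had 1 of 16, shn, and Hedgehog signalling 0 of 12, with 2 genes that had shared summits only. Cell cycle genes had 9 of 30, led by the E2F partner gene Dp and by polo.

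Among clock genes 7 of 20 had a member, led by the kinase genes sgg (214, 180 and 184) and dco (95.9, 155 and 60.4), then by vri, a bZIP repressor of Clk, with 89.8, 65.8 and 82.1, and CkIIbeta. Lipid storage and fat body genes had 6 of 21, led by Lpin and Mtp, of fat synthesis and lipoprotein assembly, and nuclear receptors 4 of 21, among them EcR, the ecdysone receptor. Of 27 contractile muscle genes 3 had a member (11.1%, against 8.61% of all genes), Msp300 (346.5, 344 and 208), sls and Tm1. The count varied, at 3, 6 and 4 genes in replicates 1, 2 and 3. Muscle specification and fusion genes had 4 of 28, org-1, rols, tin and Mef2, and the member of Mef2 had no summit within 100 bp in replicate 2.

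Early patterning genes had a member at bcd alone of 27 genes (3.70%), and Hox genes at Antp alone of 8 (12.5%). Odorant and gustatory receptor genes had 0 of 119 and Cpr cuticle protein genes 0 of 70, in the thresholded list and in each of the 3 replicates, and no shared summit either. Polycomb and trithorax group genes had 5 of 31, translation initiation factors 6 of 44, autophagy genes 3 of 24, and general transcription factors 2 of 23. In all, 22 of the 32 lists were above 8.61%. The lists differ in gene length, in the number of start sites and in how many genes have a neighbourless start. These move with the share of genes that have a member, and their part in these counts was not tested.

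**Figure D5:**
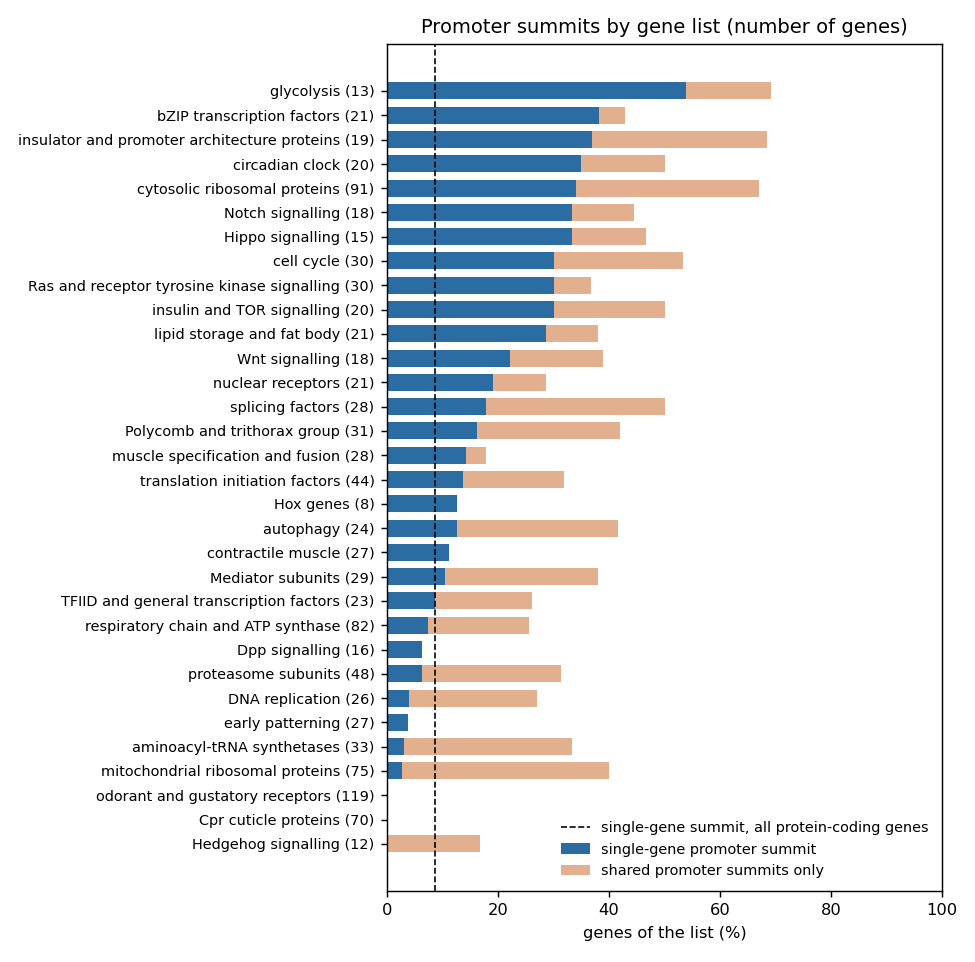
Percent of the genes of each list (horizontal axis; number of genes in brackets) with a single-gene promoter summit (dark bars) and with shared promoter summits only (light bars, stacked). The dashed line is the share of all protein-coding genes with a single-gene summit, 8.61%. Glycolysis has the longest dark bar at 53.8%, and mitochondrial ribosomal proteins have a dark bar of 2.67% with a light bar of 37.3%.

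The replicates did not hold all members alike. Of the 1339 members, 734 (54.8%) had a summit within 100 bp among the 4622 strongest peaks of all 3 replicates, against 55.8% of shared promoter summits. A further 418 had 2 such replicates, 168 had 1 and 19 had none. Single replicates held 84.8%, 72.7% and 81.9% of members, against 85.2%, 74.4% and 78.9% of shared promoter summits (exact permutation p = 1 for the difference). This support is in part fixed by the choice of the peaks, which were called on the pooled replicates. In 4 equal parts by signal, strongest first, all 3 replicates held 92.2%, 78.8%, 43.1% and 5.08% of members.

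In the whole lists of 30000 peaks, replicate 2 lacked 224 members, replicate 1 lacked 38 and replicate 3 lacked 51. Replicate 2 lacked more of the members with a GAGA word at the summit (11 of 27), with Motif 1 (7 of 19), with the DRE (10 of 38) and of ribosomal protein genes (12 of 32 summits) than of all members (16.7%). G and C at these summits were 43.3%, 47.1%, 44.4% and 45.1%, above the 37.6% of all members, and the part of base composition was not tested. The DRE and GAGA differences given above had the same sign in replicate 2 as in the others. Across the 1045 members present in all 3 lists, Spearman's rho of the signal was 0.744 for replicates 1 and 2, 0.828 for 1 and 3, and 0.725 for 2 and 3, across summits and not across independent samples.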

How the data were processed

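Peak lists in narrowPeak format and dm6 coordinates were used as the authors deposited them. They were 1 list for each replicate, 1 relaxed list called on the pooled replicates and named peaks and background, and 1 thresholded list. Per the listings deposited with them, thresholding used the irreproducible discovery rate. No aligner or peak caller is given in the sources used here. The signal is the value deposited by the authors for each peak, and is not scaled between lists. Depth is unknown, and lists in dm3 coordinates were not used.

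Summits are the peak start plus the deposited offset, on 6 chromosome arms. Of the members, 882 had peaks of the same width, 410 bp, and in 886 the summit was the middle of the peak. Start sites came from Ensembl release 115 and sequence from RefSeq Release 6. Distances are to the nearest start of the gene. Replicate values used the 4622 strongest peaks of each list, and a match was a summit within 100 bp. The replicate signals of a named member are those of the nearest such summit in each whole list. Words were searched on both strands in 101 bp windows. The 6 planned tests were adjusted by the Benjamini-Hochberg method. The 32 gene lists were matched by symbol, 23 entries by a RefSeq synonym and 7 not at all. Those 7 were Dl, Nrarp, d, Tor, calypso, lat and nos, and they are left out of the gene counts. The members, lists and words were chosen with earlier results of these data known. Named genes are the 20 strongest members found in every replicate list, up to 4 of each list by signal, the 2 summits on either side of the 500 bp limit, the 4 genes with most members and the 3 strongest members with each word. Others were chosen after their values were seen. Alternatives were other start site windows and gene models, stricter peak sets, leaving out each replicate, other sequence windows and flanks, and a match distance of 200 bp. Scripts were tested on simulated summits and words. Software was Python 3.11.15, numpy 2.4.6, pandas 2.3.3, scipy 1.17.1, statsmodels 0.14.6 and matplotlib 3.10.9.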

Additional observations from a re-analysis of the deposited data

How the results depend on the processing

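Of 109 alternative values, 66 moved by less than 1 SD of the replicates (for counts, stayed within 1.5 times), 40 moved further and 3 changed sign. The cause was not tested for any of them. A change of the start site window also changes which summits are members.

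With a window of 200 bp, the difference in DRE share was -0.417 percentage points, in G and C 4.76, in GAGA words near the start 4.11, in PAR site share against flanks 0.123, in replicate support -12.4 and in log2 signal against shared promoters -0.33. The single-gene share of promoter summits was then 73.5%, and the upstream share exceeded that of weaker summits by 26.3 points. With 1000 bp, the G and C difference was 0.766, the PAR site difference 0.589, the support difference turned to 0.963, the upstream share was 76.1% and the single-gene share 56.8%. With canonical transcripts only, the G and C difference was 2.90, the GAGA difference 5.80 and the support difference -3.46. With genes of every biotype, the single-gene share was 57.2%.

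In the stronger 2311 peaks there were 695 members in 641 genes and the single-gene share was 55.5%. The DRE difference was then -2.68, the G and C difference 1.68, the GAGA difference 8.96 and the PAR site difference 1.15. The support difference turned to 4.35 and the log2 signal difference to 0.067. In peaks supported in all 3 replicates there were 734 members in 687 genes, with a DRE difference of -1.86, a GAGA difference of 8.27 and a PAR site difference of 0.817. A sequence window of 100 bp to either side gave -6.96 for the DRE and 0.597 for the PAR site.

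Leaving out 1 replicate kept the peaks supported in both others. The member count then lay between 813 and 972 and the gene count between 753 and 899, the DRE difference between -2.51 and -2.30, and the PAR site difference between 0.659 and 0.875. The G and C difference lay between 1.82 and 2.19, the GAGA difference between 7.83 and 8.18, the upstream share between 83.0% and 87.1%, and its excess over weaker summits between 31.3 and 35.4 points.

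No paired analysis was possible because the samples form 1 group, with no second group to pair them with. The tests use differences taken within each replicate. Unknown depth and the absence of scaling between lists limit all signal values to ranks within a list.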
